A study of Mus musculus with 9 samples.

Results

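Isolated distal peaks are stretches of open chromatin that stand alone. They are the peaks whose centre lay more than 2 kb from either annotated end of every protein-coding gene, with no other peak centre within 20 kb, and either inside a protein-coding gene or within 50 kb of a gene end. The rule used position and no measured value, and it took 5293 of 75936 peaks (6.97%). All peaks had the same length. Of the 5293 peaks, 3447 (65.1%) lay inside a gene and 1846 (34.9%) between genes. They were assigned to 3585 genes, the host or the nearest one, of which 2540 had 1 such peak. An assigned gene is a neighbour and was not tested as a target.

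Openness was read by ATAC-seq: a transposase cuts accessible DNA and tags the fragments for sequencing. The cells were D2A1-d, a line of mouse breast carcinoma whose genotype the labels give as WT and whose treatment they give as Untreated. Cells were transduced with a non-targeting control (NTC, 3 libraries), the hairpin shMed1 #2 (3 libraries) or the hairpin shMed1 #4 (3 libraries), so that every group was transduced. The study is about Mediator and metastatic dormancy, and these libraries ask what lowering Med1, which encodes a Mediator subunit, does to open chromatin. By the labels, the 3 libraries of a group are biological replicates, but nothing is said of separate cultures, so p-values measure the spread between these samples. No RNA or protein was analysed here, so how far either hairpin lowered Med1 is not known, and Med1 itself had no isolated distal peak.

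Open sites away from gene ends are mostly enhancers, insulators bound by CTCF, or alternative and noncoding promoters. At an enhancer, transcription factors recruit coactivators, among them Mediator, a large complex that carries the signal to RNA polymerase II at a promoter. The MED1 subunit is the surface through which nuclear receptors and several other factors contact the complex. Active enhancers often sit in clusters, and an isolated site has no open neighbour within the stated distance.

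Sequence could be shown for those isolated peaks that overlapped the window of an annotated transcription start, called peaks with a start below. The start itself could lie outside the peak, as at Sash1. In 109 of the 5293 peaks (2.06%) the 300-base window of a RefSeq start overlapped the peak, which happens because genes also start at internal, alternative or noncoding promoters. The share was 2.89% in distal peaks with 1 to 3 neighbours and 2.52% in those with more. It was 1.99% in peaks outside genes that lay too far from a gene end for the rule, and 43.9% in gene-end peaks. The isolated share was thus near those of the other peaks away from gene ends, and low only beside gene-end peaks. The 8 stretches below are the 250 bases before the start, written 5′ to 3′ on the strand of the gene (RefSeq, GRCm38.p6). They were chosen after their values were seen: 3 that rose and 3 that fell with the smallest adjusted p among starts with a mean of at least 500 normalized counts, then Sash1, where the hairpins differed most, and the Mediator gene Med10. Capitals mark matches on either strand to 10 motifs: AP-1 (TGANTCA), ATF/CREB (TGACGTCA), TEAD (GGAATG), RUNX (TGTGGTT), ETS (CCGGAAG), the heat shock element (TTCNNGAA), SP/KLF (GGGCGGG), STAT (TTCCNGGAA), the nuclear receptor motif (AGGTCA) and the CTCF core.
Pcyt1b, chrX:93674862-93675111, + strand: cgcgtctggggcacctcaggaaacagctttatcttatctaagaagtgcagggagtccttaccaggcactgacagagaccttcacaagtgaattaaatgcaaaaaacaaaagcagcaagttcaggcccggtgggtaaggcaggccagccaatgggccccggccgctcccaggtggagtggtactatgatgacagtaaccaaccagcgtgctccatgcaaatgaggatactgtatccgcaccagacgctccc
Kifap3, chr1:163779333-163779582, + strand: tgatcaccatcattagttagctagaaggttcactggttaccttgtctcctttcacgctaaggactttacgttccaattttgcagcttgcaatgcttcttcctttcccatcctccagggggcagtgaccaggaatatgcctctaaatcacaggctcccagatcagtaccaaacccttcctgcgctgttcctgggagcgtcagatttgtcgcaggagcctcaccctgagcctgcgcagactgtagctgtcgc
Gm36876 near Axin2, chr11:108980489-108980738, + strand: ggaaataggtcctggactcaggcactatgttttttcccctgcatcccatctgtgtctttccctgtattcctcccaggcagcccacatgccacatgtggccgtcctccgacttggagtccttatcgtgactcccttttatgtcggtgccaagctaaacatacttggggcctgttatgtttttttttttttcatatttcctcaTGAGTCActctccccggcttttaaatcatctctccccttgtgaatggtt
Add3, chr19:53142506-53142755, + strand: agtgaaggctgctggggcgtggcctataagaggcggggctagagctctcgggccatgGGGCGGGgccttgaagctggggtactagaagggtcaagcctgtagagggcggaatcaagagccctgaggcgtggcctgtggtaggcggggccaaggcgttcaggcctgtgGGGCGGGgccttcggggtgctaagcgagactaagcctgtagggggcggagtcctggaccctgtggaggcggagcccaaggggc
Adh5, chr3:138442843-138443092, + strand: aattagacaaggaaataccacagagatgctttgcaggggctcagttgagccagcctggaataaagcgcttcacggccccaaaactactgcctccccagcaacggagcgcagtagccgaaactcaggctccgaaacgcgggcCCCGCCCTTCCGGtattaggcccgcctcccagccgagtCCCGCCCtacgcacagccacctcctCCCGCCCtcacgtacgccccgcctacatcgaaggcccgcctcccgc
Rnf32, chr5:29195743-29195992, + strand: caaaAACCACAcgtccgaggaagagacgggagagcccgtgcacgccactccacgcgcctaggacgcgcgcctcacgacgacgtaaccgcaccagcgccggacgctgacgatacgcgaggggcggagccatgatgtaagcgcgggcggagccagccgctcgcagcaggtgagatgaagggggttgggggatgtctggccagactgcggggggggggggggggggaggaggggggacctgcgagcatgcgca
Sash1, chr10:8886071-8886320, - strand: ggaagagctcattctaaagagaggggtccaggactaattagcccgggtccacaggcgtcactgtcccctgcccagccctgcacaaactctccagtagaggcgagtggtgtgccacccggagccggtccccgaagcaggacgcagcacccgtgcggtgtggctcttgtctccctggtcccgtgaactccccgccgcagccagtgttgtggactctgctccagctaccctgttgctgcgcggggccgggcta
Med10, chr13:69809632-69809881, + strand: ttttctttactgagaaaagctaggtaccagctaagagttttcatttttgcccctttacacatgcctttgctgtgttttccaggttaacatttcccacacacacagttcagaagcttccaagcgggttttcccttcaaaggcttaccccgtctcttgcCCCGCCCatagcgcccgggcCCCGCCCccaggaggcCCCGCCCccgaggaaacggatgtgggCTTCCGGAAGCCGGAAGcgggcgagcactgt
The windows of Pcyt1b, Kifap3 and Gm36876, whose peaks rose, held 53.6%, 51.6% and 47.6% G and C. Those of Add3, Adh5 and Rnf32, whose peaks fell, held 67.2%, 63.6% and 70.0%, with 13, 21 and 29 CpG dinucleotides. The matches were an AP-1 motif in Gm36876, 2 SP/KLF motifs in Add3, 3 SP/KLF and 1 ETS motif in Adh5, a RUNX motif in Rnf32, and 3 SP/KLF, 3 ETS (the adjoining ones overlapping) and 1 heat shock motif in Med10. No motif of the set matched in Pcyt1b, Kifap3 or Sash1.

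Across the 109 windows, with 1 start per peak, AP-1 matched in 12.8% against 6.75% of 32817 windows of all RefSeq starts. ETS matched in 11% against 6.9%, SP/KLF in 23.9% against 23.4%, the nuclear receptor motif in 6.42% against 14%, and the CTCF core in 0.917% against 0.509%. TEAD matched in 10.1% against 12.6%, RUNX in 0.917% against 4.39%, the heat shock element in 9.17% against 7.16%, STAT in 1.83% against 0.914% and ATF/CREB in 1.83% against 1.55%. Few of the 109 windows lay behind some of these shares. The nuclear receptor motif matched in 7, STAT and ATF/CREB in 2 each, and RUNX and the CTCF core in 1 each. A match describes letters in the window and is not evidence of binding. Median G and C content was 52.8% in the windows of isolated peaks and 52.4% in all windows.

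The deposited values are counts that the authors normalized with DESeq2. Reads in peaks were inferred as 34.8 to 53.7 M per library, by finding for each library a size factor that makes its values whole within 0.01. The size factors themselves were not read from a file, so these totals are estimates and no test used them. Replicates correlated at 0.988 to 0.991 across peaks and libraries of different groups at 0.970 to 0.982. Among markers of the line, peaks at a gene end of Vim, Fn1, Col1a1, Krt8 and Krt18 had mean levels of 4490, 3220, 1250, 892 and 168 normalized counts. No gene-end peak was listed for Epcam, Cdh1 or Cdh2. Of the 18 blood cell markers 9 had a gene-end peak, as did 5 of 15 markers of endothelium and fat and 9 of 16 of nerve and muscle. Some of these were stronger than those of the line: the highest mean levels were 1910 at Cd68, 703 at Spi1, 518 at Cd79a and 497 at Cd4 among blood markers, 415 at Lep and 352 at Cdh5 in endothelium and fat, and 611 at Tubb3 and 369 at Map2 in nerve and muscle. The pan-leukocyte gene Ptprc and the T cell gene Cd3e had none. An open gene end does not show that the gene is expressed, and these markers did not settle the identity of the cells.

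Isolated peaks were weaker than the rest. Their median level was 116 normalized counts, against 205 for all peaks, 161 for distal peaks with 1 to 3 neighbours, 205 for those with 4 or more, and 763 for gene-end peaks. When all tested peaks were ranked by level and cut into quintiles, quintiles 1 and 2, the weakest, held 29.3% and 30.1% of the isolated peaks and quintile 5 held 7.07%. The median distance to the next peak was 31.7 kb, and 408 isolated peaks had more than 100 kb on both sides. Those inside genes lay in long ones. Counted once per peak, the median length of the host gene was 169 kb, against 88.1 kb for other distal peaks. On chromosome X, 15.3% of peaks were isolated, against 4.42% on chromosome 11. In the share of all peak signal they made up 3.38% ± 0.0182 in NTC, 3.42% ± 0.0214 in #2 and 3.37% ± 0.0587 in #4 (SD, n = 3). The single libraries ran from 3.355% to 3.387% in NTC, from 3.395% to 3.435% in #2 and from 3.304% to 3.42% in #4, so #2 lay above NTC while #4 overlapped both. The median log2 value of an isolated peak, in contrast, was 6.929 to 6.96 in the NTC libraries, 6.815 to 6.847 in #2 and 6.829 to 6.894 in #4, lower in all 6 hairpin libraries.

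Both directions of change were found among isolated peaks, in about equal numbers, with either hairpin. Of 5292 tested, 969 (18.3%) rose with #2 and 1003 (19.0%) fell, beside 23.6% and 19.5% of all 75930 peaks tested (limma, adjusted p under 0.05). With #4, 625 (11.8%) rose and 527 (9.96%) fell, beside 17.3% and 12.1% of all peaks. In the mean of both hairpins against NTC, 847 (16.0%) rose and 840 (15.9%) fell, beside 22.1% and 17.7%. The median log2 fold change was -0.089 with #2, -0.059 with #4 and -0.068 in the mean, and for all peaks -0.016, -0.012 and -0.008. Comparisons with NTC share its 3 libraries, so the hairpins' values are given side by side. Among calls in the mean, 50.2% were higher in isolated peaks, 58.8% in distal peaks with 1 to 3 neighbours, 68.0% in those with 4 or more and 34.4% in gene-end peaks. These shares move with the scaling. With equal library totals, which lowers the median of all peaks to -0.085, 593 isolated peaks rose and 1420 fell, a higher share of 29.5%. Of all 75930 peaks 12104 rose and 21010 fell in that setting. Lower calls in the mean were 473 without NTC replicate 2 and 482 without NTC replicate 3. With #4 they were 294 and 304 without those libraries, and with #2 they were 650 without NTC replicate 2. Lower calls over all peaks moved the same way. In the mean they were 8993 and 8325 without NTC replicate 2 or 3, against 13452 in the main fit. With #4 they were 5819 and 5500, against 9152. With #2 they were 10931 without NTC replicate 2, against 14781.

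Direction followed strength. In the mean of both hairpins, 244 of 374 isolated peaks of quintile 5 rose (65.2%) and 20 fell, with a median log2 fold change of 0.20. In quintile 4, 258 of 693 rose and 68 fell (median 0.096). Quintile 3 had 180 higher and 200 lower of 1084 (median -0.055). Of 1592 peaks in quintile 2, 114 rose and 338 fell (median -0.17), and of 1549 in the weakest 51 rose and 214 fell (median -0.16). The quintiles run from 10.8 to 80.6, to 145, to 313, to 915 and to 9880 normalized counts. Smaller changes could be called in strong peaks. The smallest called change was 0.095 in quintile 5 and 0.395 in the weakest, and the median replicate SD on the log2 scale was 0.065 and 0.256.

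**Figure D1:**
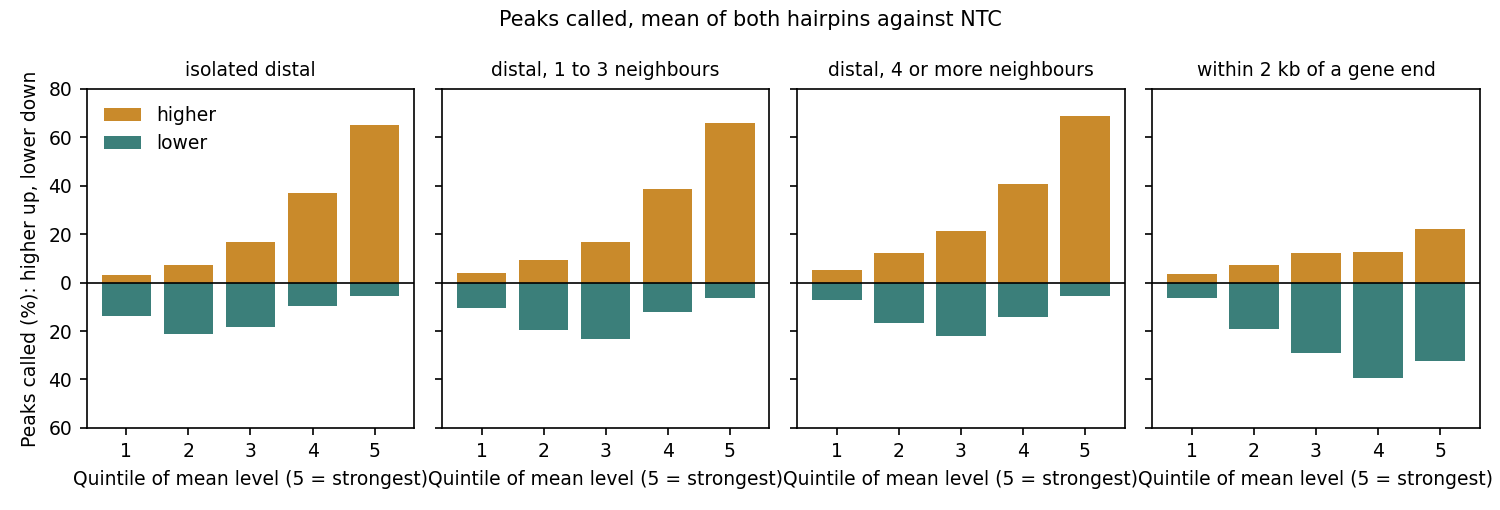
Percent of peaks called higher (upward bars) or lower (downward bars) in the mean of both hairpins against NTC, by quintile of mean level and peak class (limma, adjusted p under 0.05). In isolated peaks the higher calls go from 3.29% in quintile 1 to 65.2% in the strongest, much like the other distal classes, while gene-end peaks have more lower than higher calls in each quintile.

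The quintiles were cut on the mean of 9 libraries, 6 of them with a hairpin, which itself moves peaks that rose into stronger quintiles. With quintiles cut on the NTC libraries alone, 216 of 356 isolated peaks rose and 25 fell in the strongest (median 0.17), and 250 of 708 rose and 84 fell in the next. Quintile 2 still had 376 lower and 115 higher of 1641 (median -0.195). In quintile 1 the excess of lower calls was gone, with 113 higher and 103 lower of 1473 (median -0.052). Quintile 3 had 153 higher and 252 lower of 1114 (median -0.104). The NTC libraries are also the reference of the fold changes. This cut therefore moves peaks that are low in NTC by chance into weaker quintiles, where they read as rises. The 2 cuts are thus biased in opposite ways, and the direction in quintiles 2, 4 and 5 was the same with both. In the weakest quintile they differed, and these counts cannot tell which cut is nearer.

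The size of this pattern moved with the scaling. With cyclic loess quintile 2 had 174 higher and 205 lower (median -0.088) and with quantile scaling 163 and 234 (median -0.10). Quintile 3 turned to more higher than lower calls, 205 and 152 with cyclic loess and 200 and 179 with quantile scaling, at medians of -0.021 and -0.033. Quintile 4 had 218 higher and 91 lower with cyclic loess (median 0.058) and 194 and 112 with quantile scaling (median 0.034). With equal totals it had 175 and 130 (median 0.019), and quintile 2 had 75 and 546 (median -0.24). In the strongest quintile the median was 0.115 to 0.12 under all of these, with 185 to 192 higher and 46 to 50 lower.

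At matched level, strong isolated peaks had shares of calls near those of other strong distal peaks. In quintile 5, 65.8% of distal peaks with 1 to 3 neighbours and 68.9% of those with 4 or more rose, and the medians were 0.20 and 0.22. Among weak distal peaks the isolated ones had the lower medians. In quintile 2 these were -0.17 in isolated peaks, -0.11 with 1 to 3 neighbours and -0.052 with 4 or more, and higher calls made up 7.16%, 9.35% and 12.2%. Gene-end peaks of quintile 4 had 12.6% higher and 39.6% lower. No test of these differences between classes was made.

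Single libraries showed the same order. Relative to the mean of NTC, the median isolated peak of quintile 5 lay 0.20 to 0.23 higher in the #2 libraries and 0.17 to 0.18 higher in the #4 libraries on the log2 scale, with the NTC libraries between -0.022 and 0.029. In quintile 4 the #2 libraries lay 0.115 to 0.17 higher and the #4 libraries 0.006 to 0.065 higher, with 1 NTC library at 0.018, so #4 overlapped NTC there. In quintile 2 the #2 libraries lay at -0.21 to -0.16 and the #4 libraries at -0.16 to -0.069, all below NTC.

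**Figure D2:**
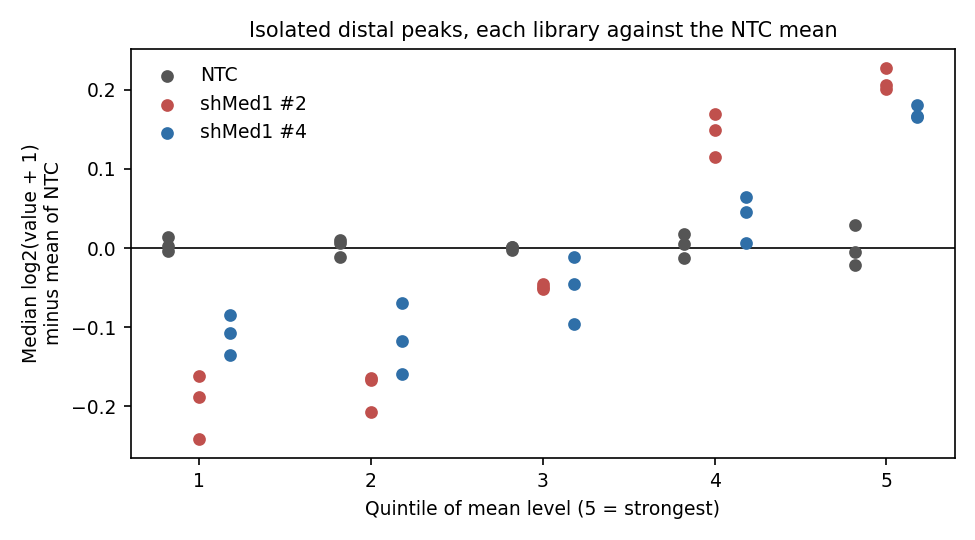
Median over isolated distal peaks of log2(value + 1) minus the NTC mean, for each of 9 libraries (points), by quintile of mean level. The hairpin libraries lie below the NTC libraries in the weakest 2 quintiles and above them in the strongest, and #2 lies above #4 in quintiles 4 and 5.

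Strong isolated peaks were then counted with and without an annotated start. In the strongest 2 quintiles together, 998 isolated peaks had no RefSeq start, and 484 (48.5%) rose and 69 (6.91%) fell in the mean of both hairpins. The 69 peaks with a start had 18 higher (26.1%) and 19 lower (27.5%), a median of -0.052 against 0.14. Those with a start were stronger, with median levels of 1150 and 641 normalized counts. With equal totals, quantile scaling and cyclic loess the peaks with a start had 9 higher and 30 to 33 lower, and those without had 352 to 394 higher and 110 to 144 lower. Without NTC replicate 3 the counts were 12 and 12 with a start. The windows of the 19 that fell had a median G and C content of 58.4%, and those of the 18 that rose 51.8%, with ranges of 48.4% to 72.0% and 44.0% to 77.2% that overlapped. This split by starts was made after the values were seen and has no test.

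**Figure D3:**
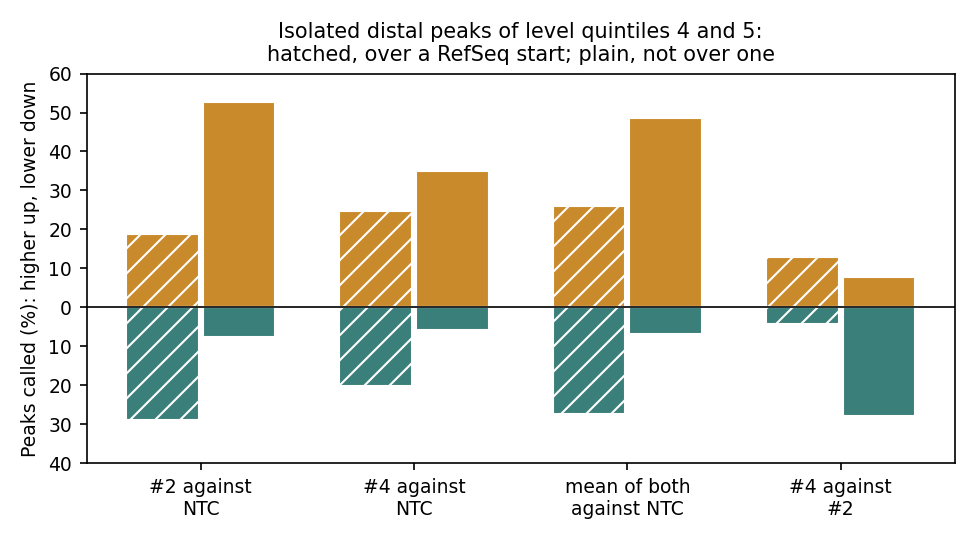
Percent of isolated distal peaks in level quintiles 4 and 5 called higher (up) or lower (down) in each comparison. Hatched bars are 69 peaks that overlap the window of a RefSeq start, and plain bars are 998 that do not. Without a start 48.5% rose and 6.91% fell in the mean of both hairpins, and with one 26.1% rose and 27.5% fell.

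Pcyt1b encodes an enzyme of phosphatidylcholine synthesis. Among starts with a mean of at least 500 outside chromosome 18, it had the smallest adjusted p of those that rose. Its peak (chromosome X, 93674838 to 93675339) had 1260, 1210 and 1170 normalized counts in NTC, 1630, 1580 and 1740 in #2, and 1720, 1580 and 1540 in #4. The hairpin libraries were all above NTC, and the log2 fold change in the mean was 0.42 ± 0.049 (SE; limma, adjusted p = 8.39e-10). The peak at an internal start of Kifap3, an adaptor of kinesin-2, rose by 0.245 ± 0.041 (limma, adjusted p = 3.08e-06), and that of Gm36876 by 0.33 ± 0.057 (limma, adjusted p = 5.60e-06).

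Add3 encodes an adducin of the membrane skeleton. Its peak (chromosome 19, 53142338 to 53142839) had 2290, 2580 and 2600 normalized counts in NTC, 2060, 1810 and 1820 in #2 and 2020, 2040 and 2000 in #4, with no overlap between NTC and the hairpins. It fell by 0.345 ± 0.046 on the log2 scale in the mean (limma, adjusted p = 2.21e-08). The start of Adh5, a glutathione-dependent formaldehyde dehydrogenase, fell by 0.31 ± 0.049 (limma, adjusted p = 1.16e-06), and that of Rnf32 by 0.38 ± 0.065 (limma, adjusted p = 5.13e-06).

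Calls were also counted by distance. With the next peak 20 to 30 kb away, 441 of 2407 isolated peaks rose and 369 fell in the mean of both hairpins. At 30 to 50 kb 251 of 1639 rose and 251 fell, and over 50 kb 155 of 1246 rose and 220 fell. Level moved with the gap, from a median of 125 through 120 to 98.4 normalized counts. Within quintile 4 of level the higher share was 41.5%, 32.9% and 33.0% for the 3 gap classes, and within the strongest 67.5%, 62.9% and 61.9%. Peaks inside genes had 592 higher and 519 lower of 3446, and intergenic ones 255 and 321 of 1846, at median levels of 116 and 115. In quintile 3 these were 124 higher and 101 lower inside genes, and 56 higher and 99 lower between genes. Of the 3 thresholds of the rule, the first gave similar values on both sides: 17.9% higher and 15.0% lower for 680 members with a neighbour at 20 to 22 kb, and 18.6% and 14.3% for 802 distal peaks with one at 18 to 20 kb. Members 2 to 3 kb from a gene end had 11.4% higher and 21.6% lower (n = 176), and lone peaks at 1 to 2 kb 15.1% and 15.9% (n = 245). Intergenic members 40 to 50 kb from a gene end had 15.2% and 12.8% (n = 243), and lone peaks at 50 to 60 kb 14.2% and 17.8% (n = 219).

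The strongest isolated peak lay inside Egln1 (chromosome 8, 124926311 to 124926812), which encodes the oxygen-sensing prolyl hydroxylase PHD2 that marks HIF-alpha for degradation. It had 5190, 4720 and 4380 normalized counts in NTC, 6390, 7070 and 7430 in #2, and 7340, 7770 and 7230 in #4. The hairpin libraries were all above NTC, and the log2 fold change in the mean was 0.60 ± 0.038 (limma, adjusted p = 1.21e-17). The next, near Trim55 (chromosome 3, 19628264 to 19628765), lay 0.07 kb from the tyrosine tRNA gene n-TYgta1 and rose by 0.23 ± 0.034 (limma, adjusted p = 1.49e-07), but by 0.036 with quantile scaling (limma, adjusted p = 0.364). A peak near Gpr65, a proton-sensing receptor, went from an NTC mean of 3470 ± 88.5 to 4170 ± 68.9 with #2 and 4350 ± 115 with #4 (SD, n = 3). Peaks near Zfp958 and at a start inside Lrif1, which encodes a nuclear protein that binds HP1, had log2 differences in the mean of 0.046 (adjusted p = 0.296) and 0.095 (adjusted p = 0.0237) by limma, and both were negative with quantile scaling (-0.17 and -0.091) and with cyclic loess (-0.098 and -0.044). Without NTC replicate 3 the Lrif1 peak did not pass (0.061; limma, adjusted p = 0.25).

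tRNA genes, transcribed by RNA polymerase III, had 6 isolated peaks within 0.3 kb. Besides n-TYgta1, n-TMcat13 (chromosome 13) and n-TIaat11 (chromosome 13) fell by 0.37 ± 0.099 and 0.54 ± 0.11 in the mean (limma, adjusted p = 0.00263 and 6.76e-05). The other 3, n-TEttc6, n-TFgaa5 and n-TNgtt14, had -0.091, -0.445 and -0.034 (limma, adjusted p = 0.118, 0.0666 and 0.628). They stood at 1740, 58.6 and 1350 normalized counts.

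The peaks farthest from any other were on chromosome X. The one inside Gm46696 (83875235 to 83875736) had its nearest neighbour 1698.4 kb away and averaged 350 ± 15.0 (NTC), 333 ± 61.5 (#2) and 419 ± 50.9 (#4) normalized counts (SD, n = 3). One near Il1rapl1, a synaptic adhesion receptor, and one near 4932429P05Rik were each other's neighbours at 1673.4 kb. In the mean of both hairpins the differences of the 3 peaks were 0.083, 0.037 and -0.19 on the log2 scale, with limma adjusted p-values of 0.481, 0.80 and 0.342.

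Named peaks for each comparison were those with the largest changes among isolated peaks with a mean of at least 50, an adjusted p under 0.05 and no overlap between the groups, 1 per gene. In the mean of both hairpins 512 peaks met this upward and 441 downward. A peak near the olfactory receptor gene Olfr893 (chromosome 9, 38196062 to 38196563), 362.7 kb from the next peak, led those that rose. It had 51.9, 39.6 and 32.3 normalized counts in NTC, 80.8, 96.7 and 108 in #2 and 96.3, 65.1 and 105 in #4, so that it rose by 1.14 ± 0.18 on the log2 scale (limma, adjusted p = 1.59e-06). The peak near Fam110b (chromosome 4, 5814415 to 5814916) rose from an NTC mean of 38.7 ± 3.13 to 71.6 ± 4.88 with #2 and 97.0 ± 9.01 with #4 (SD, n = 3; log2 1.09 ± 0.18). That near Hes1, a Notch-responsive repressor (chromosome 16, 30111065 to 30111566), had 63.6, 45.2 and 50.5 in NTC, 138, 144 and 149 in #2 and 88.1, 78.8 and 82.3 in #4. Its rise was larger with #2 (1.43 ± 0.18) than with #4 (0.65 ± 0.18), and the difference of -0.78 ± 0.18 passed the test (limma, adjusted p = 0.000788). Peaks inside Tafa5, a secreted chemokine-like protein, and Stxbp5, the SNARE regulator tomosyn, rose by 1.035 ± 0.14 and 1.03 ± 0.17.

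Hsf2, a heat shock transcription factor, was nearest to the peak with the largest fall in the mean (chromosome 10, 57463261 to 57463762). It had 85.1, 84.8 and 94.9 normalized counts in NTC, 42.2, 25.3 and 37.8 in #2, and 41.6 ± 10.2 in #4 (SD, n = 3). All 6 hairpin libraries were below NTC, which the naming rule required. The peak fell by 1.215 ± 0.22 on the log2 scale (limma, adjusted p = 1.05e-05). Peaks near Gpr137b, a lysosomal membrane protein, the olfactory receptor gene Olfr331, and Snd1, an RNA-binding nuclease-domain protein, also fell, with log2 fold changes of -0.95 ± 0.21, -0.93 ± 0.21 and -0.92 ± 0.21.

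Among peaks named for #2, that inside Spin1, a reader of methylated histone H3 (chromosome 13, 51128286 to 51128787), was the most strongly open. It had 382, 285 and 303 normalized counts in NTC, 793, 852 and 812 in #2, and 394, 435 and 440 in #4. The rise was 1.35 ± 0.089 with #2 and 0.40 ± 0.089 with #4. Peaks near Hephl1, a copper-dependent ferroxidase, and inside Loxhd1, a hair-cell protein, both rose by 1.27 with #2, and with #4 had 0.39 ± 0.12 (adjusted p = 0.0131) and 0.39 ± 0.18 (adjusted p = 0.0946) by limma. Inside Cpq, a carboxypeptidase, and near Slc35g1, a membrane transporter, peaks fell by 1.38 ± 0.25 and 1.22 ± 0.22 with #2, and with #4 had -0.23 ± 0.25 and 0.043 ± 0.22 (limma, adjusted p = 0.53 and 0.907).

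Among peaks named for #4, those inside Skap2, an adaptor of integrin signalling, and Itpr2, an IP3-gated calcium channel, rose by 1.29 ± 0.28 and 1.18 ± 0.25. Skap2 had 21.5, 47.0 and 29.3 normalized counts in NTC and 61.5, 78.8 and 94.6 in #4, and its difference with #2 was 0.29 ± 0.28 (limma, adjusted p = 0.417). The peak inside Wwox, an oxidoreductase gene on a fragile site, fell by 1.07 ± 0.21 with #4, from 90.1 ± 3.81 to 42.5 ± 3.98 (SD, n = 3). Inside Lgr5, the R-spondin receptor known from stem cells, the fall was 1.01 ± 0.23 with #4, against -0.024 ± 0.23 with #2 (limma, adjusted p = 0.943). Peaks inside Tmc3 and Galnt5, an O-glycosylation enzyme, fell by 0.98 ± 0.24 and 0.98 ± 0.17.

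**Figure D4:**
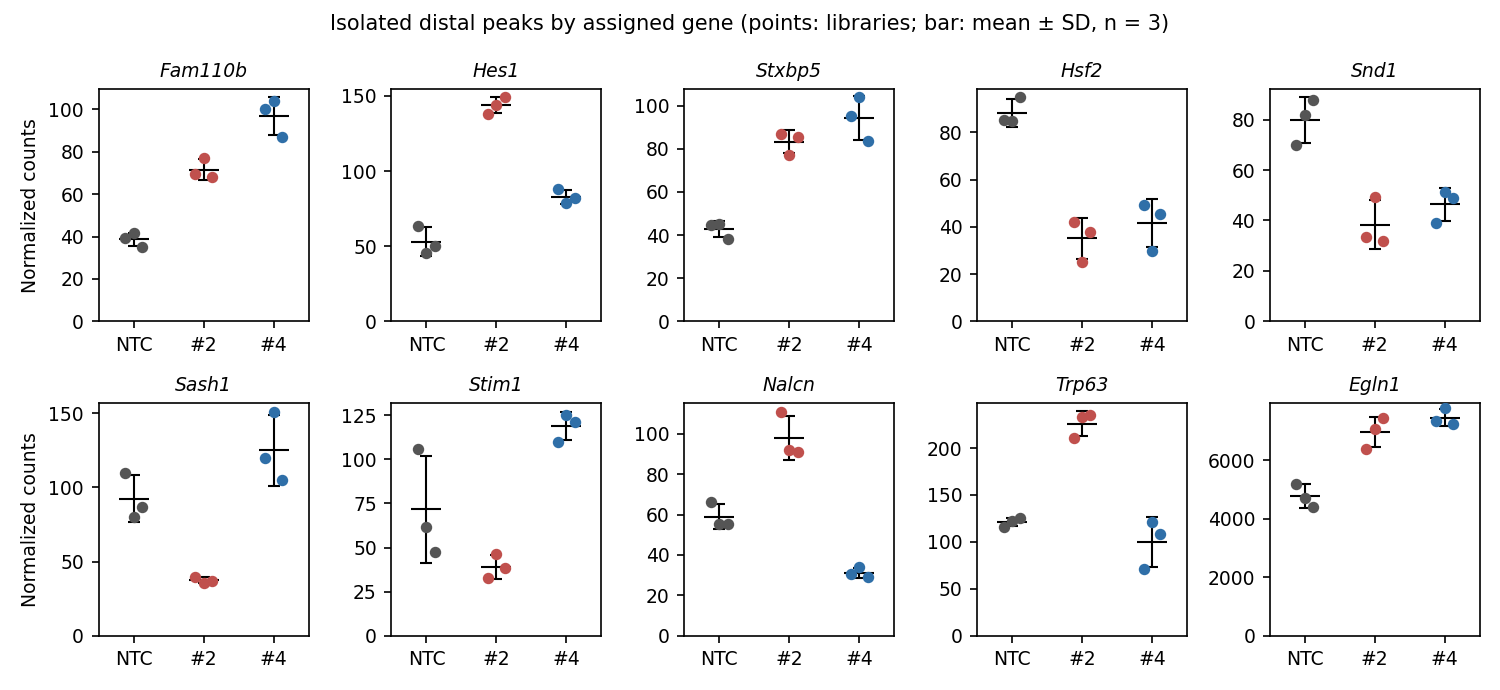
Normalized counts at 10 isolated distal peaks, titled by assigned gene, in NTC, shMed1 #2 and shMed1 #4. Points are libraries and bars the mean ± SD (n = 3). Fam110b, Hes1, Stxbp5 and Egln1 are higher and Hsf2 and Snd1 lower in all 6 hairpin libraries than in NTC, and #2 and #4 lie apart at Sash1, Stim1, Nalcn and Trp63. Except at Egln1, named for its level, the naming rule required this separation.

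The hairpins also differed from each other. In #4 against #2, 410 of the isolated peaks were higher (7.75%) and 658 lower (12.4%), beside 8.48% and 13.0% of all peaks, with a median log2 difference of 0.025. Higher calls numbered 273 without #4 replicate 3, and those over all peaks went from 6439 to 4842. In quintile 4 of level 62 were higher and 200 lower, and in the weakest 107 were higher and 66 lower. The largest difference among peaks that met the naming rule was next to an internal start of Sash1 (chromosome 10, 8886150 to 8886651). Sash1 is a signalling scaffold described as a candidate tumour suppressor. The peak was 336.8 kb from the next one. It had 110, 80.2 and 86.8 normalized counts in NTC, 39.5, 35.7 and 36.9 in #2, and 120, 151 and 105 in #4. The #2 libraries lay below all others, while #4 overlapped NTC. The difference between the hairpins was 1.70 ± 0.19 (limma, adjusted p = 2.17e-09). The peak inside Stim1, the calcium sensor of the endoplasmic reticulum, had 39.1 ± 6.79 in #2 and 119 ± 8.09 in #4 (SD, n = 3), with NTC spread from 47.4 to 106. Inside Nalcn, a sodium leak channel, the order was the other way: 66.3, 55.3 and 55.5 in NTC, 111, 92.1 and 91.1 in #2, and 30.7, 33.8 and 28.9 in #4. Inside Ablim3, an actin-binding LIM protein, 368 ± 27.4 in #2 compared with 148 ± 13.1 in #4.

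Rbms3, an RNA-binding protein gene, held 4 isolated peaks, and all 4 were higher in #4 than in #2, beside 7.75% of all isolated peaks and 8.48% of all peaks. At 117016598 to 117017099 on chromosome 9 the values were 82.4, 112 and 89.8 normalized counts in NTC, 47.4, 54.1 and 64.0 in #2, and 167, 168 and 170 in #4. The #2 libraries were below and the #4 libraries above NTC, and the difference between hairpins was 1.60 ± 0.17 (limma, adjusted p = 3.69e-10). At 116590981 it was 1.37 ± 0.14, at 117153887 it was 1.60 ± 0.24, and at 117571059 it was 0.75 ± 0.23 (limma, adjusted p = 2.80e-10, 9.74e-07 and 0.0123). The nearest neighbour of each of these peaks lay 79.5 to 318.8 kb away. For the peak at 117016598 it was the Rbms3 peak at 117153887, at 137.3 kb. Peaks of 1 gene share a locus and are not independent.

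Lrmda, a melanocyte differentiation gene of 1040 kb, held 10 isolated peaks, of which 5 rose and 0 fell with #2, 1 rose and 2 fell with #4, and 6 were lower in #4 than in #2. Of all isolated peaks 18.3% rose and 19.0% fell with #2, and 11.8% and 9.96% did with #4. In #4 against #2, 12.4% were lower. Over all peaks the shares were 23.6% and 19.5%, 17.3% and 12.1%, and 13.0%. The peak at 22621920 on chromosome 14 had 535, 454 and 394 normalized counts in NTC, 958, 970 and 912 in #2, and 579, 569 and 586 in #4. It rose with #2 by 1.05 and with #4 by 0.34, all 6 hairpin libraries lying above NTC.

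Cacna1c encodes the pore of an L-type calcium channel and held 5 isolated peaks, of which 4 rose and 0 fell in the mean of both hairpins. Of all isolated peaks 16.0% rose and 15.9% fell in the mean, and of all peaks 22.1% and 17.7%. At 118821404 on chromosome 6 the values were 199, 221 and 188 normalized counts in NTC, 336, 318 and 378 in #2 and 358, 344 and 319 in #4, a rise by 0.75 ± 0.089 (limma, adjusted p = 1.42e-09). At 118791876 the hairpins parted, with 257, 263 and 312 in #2 and 449 to 553 in #4. Sox5, a developmental transcription factor, had 3 of 5 higher and 0 lower, with a peak at 144270261 at 330 to 341 in NTC, 445 to 478 in #2 and 487 to 522 in #4.

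Inpp4b, a phosphoinositide phosphatase gene, had 0 of 5 isolated peaks higher and 3 lower in the mean. Its peak at 81776927 on chromosome 8 had 312, 263 and 235 normalized counts in NTC, 125, 115 and 117 in #2 and 242, 267 and 266 in #4, so that #2 stood apart. Macrod2, an ADP-ribosylhydrolase gene of 2000 kb, had the most isolated peaks, 11, of which 1 rose and 3 fell in the mean. In the mean Dock4, a Rac activator, had 4 higher and 0 lower of 9, Dlgap1, a postsynaptic scaffold, 0 and 3 of 7, and Nrxn3, a presynaptic adhesion receptor, 0 and 3 of 8, the remaining peaks of each not being called. Calls went both ways at Rbfox1 (3 higher and 2 lower of 9), Alk (2 and 2 of 8) and Unc13c (1 and 2 of 9). Of all isolated peaks 16.0% rose and 15.9% fell in the mean, beside 22.1% and 17.7% of all peaks. These genes, and Lrmda, Cacna1c and Sox5 above, were picked from 67 with 5 or more isolated peaks after their counts were seen.

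Gene lists are described by their counts. Those below refer to the mean of both hairpins unless stated, beside the 16.0% higher and 15.9% lower of isolated peaks as a whole and their median of -0.068 (all peaks, -0.008). None of the 30 genes of the AP-1 and immediate early list had an isolated peak, although 200 peaks of all classes were assigned to them. Of 8 isolated peaks of the Mediator list, 1 rose and 2 fell (median -0.066). Inside Cdk19, a kinase of the Mediator kinase module, the peak (chromosome 10, 40416850 to 40417351) had 540, 497 and 523 normalized counts in NTC, 564, 605 and 640 in #2, and 627, 683 and 582 in #4, all hairpin libraries above NTC. It rose by 0.24 ± 0.068 (limma, adjusted p = 0.00349). Med12l, a paralogue of the kinase module subunit MED12, had 3 isolated peaks. Those at 59059147 and 59079196 fell by 0.34 ± 0.087 and 0.37 ± 0.11 (limma, adjusted p = 0.00167 and 0.00713), the second losing its call without NTC replicate 3 (adjusted p = 0.0953). The start of Med10, a middle-module subunit, stood at 734 ± 34.1 (NTC), 712 ± 36 (#2) and 741 ± 6.15 (#4; mean and SD of 3 libraries each). Its difference of -0.015 ± 0.061 did not pass (limma, adjusted p = 0.868). Peaks near Med4, Med30 and Med13l had -0.055 ± 0.11, -0.27 ± 0.12 and 0.067 ± 0.050 (limma, adjusted p = 0.705, 0.06 and 0.297), and Med30 passed in 5 of the alternatives.

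TGF-beta and BMP genes had 4 higher and 1 lower of 19 isolated peaks (median 0.054). With #2 there were 6 higher and 2 lower (median 0.018), where 18.3% of all isolated peaks rose and 19.0% fell. With #4 there were 1 higher and 1 lower (median 0.023), where 11.8% and 9.96% did. Both TGF-beta receptor chains had a peak that rose. The intergenic one near Tgfbr2 (chromosome 9, 116218761 to 116219262) had 1710, 1720 and 1630 normalized counts in NTC, 2120, 2120 and 2290 in #2, and 2090, 2290 and 2270 in #4, a rise by 0.38 ± 0.044 (limma, adjusted p = 7.00e-10). That inside Tgfbr1 rose by 0.55 ± 0.17 (limma, adjusted p = 0.00649). A peak near Ltbp1, which tethers latent TGF-beta in the matrix, rose by 0.38 ± 0.072 in the mean. It had 466, 447 and 385 normalized counts in NTC, 737, 697 and 743 in #2, and 436, 458 and 413 in #4. Only #2 stood apart, and #4 lay within the range of NTC. The peak inside Smad4, the common mediator of the pathway, fell by 0.46 ± 0.13 (limma, adjusted p = 0.00442), but not past the threshold without NTC replicate 3 (adjusted p = 0.0867).

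Epithelial and mammary identity genes had 9 higher and 2 lower of 19 isolated peaks with #2 (median 0.22), where 18.3% of all isolated peaks rose and 19.0% fell. With #4 they had 3 higher and 1 lower (median 0.068), where 11.8% and 9.96% did. In #4 against #2, 0 were higher and 8 lower, where 7.75% and 12.4% of isolated peaks were. Near Elf3, an epithelial ETS factor (chromosome 1, 135226470 to 135226971), the values were 1610, 1500 and 1490 normalized counts in NTC, 2270, 2450 and 2550 in #2, and 1700, 1780 and 1820 in #4, so that #2 was highest and #4 lay between. Trp63, the p63 gene of basal epithelium, had 5 isolated peaks, of which 3 rose and 0 fell with #2, 2 rose and 0 fell with #4, and 2 were lower in #4 than in #2. One of those, at 25905364 (chromosome 16), had 116, 122 and 125 in NTC, 211, 233 and 235 in #2, and 70.7, 121 and 108 in #4, a difference of -1.20 ± 0.15 between the hairpins (limma, adjusted p = 2.21e-08). A peak of Tfap2c, the AP-2 gamma gene, was lower in #4 than in #2 by -0.93 ± 0.17 on the log2 scale. The peak near Ovol2, an epithelial repressor, fell by 0.50 ± 0.17 in the mean, and it did not pass without NTC replicate 2 (limma, adjusted p = 0.0126 and 0.13).

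YAP and TEAD targets had 2 higher and 5 lower of 9 isolated peaks with #2, 4 higher and 0 lower with #4, and 6 higher and 1 lower in #4 against #2. The shares over all isolated peaks were 18.3% and 19.0%, 11.8% and 9.96%, and 7.75% and 12.4%. Of those 6 peaks, 4 are the peaks of Rbms3 described above, and the others lay at Ankrd1 and Ptpn14. The peak inside Amotl1, an angiomotin that binds YAP, rose by 0.29 ± 0.081 in the mean, and by hairpin it rose by 0.46 with #2 and had 0.126 with #4 (limma, adjusted p = 0.329), a difference that passed (limma, adjusted p = 0.0067). Near Tead4, a DNA-binding partner of YAP, the strong peak at 3820 ± 180 (NTC), 3510 ± 130 (#2) and 3590 ± 106 (#4; mean and SD of 3 libraries each) fell by 0.105 ± 0.037, and it did not pass without NTC replicate 2 or 3 or without #2 replicate 2 (limma, adjusted p = 0.137, 0.139 and 0.051).

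Integrin and focal adhesion genes had 2 higher and 1 lower of 5 isolated peaks, and matrix genes 4 higher and 4 lower of 24 (median -0.017). Matrix genes had 2 higher and 6 lower with #2, where 18.3% and 19.0% of all isolated peaks were called. With #4 they had 4 higher and 3 lower, where 11.8% and 9.96% were. Inside Itga11, a collagen-binding integrin chain, the peak (chromosome 9, 62684249 to 62684750) had 675, 717 and 654 normalized counts in NTC, 783, 781 and 829 in #2, and 919, 818 and 855 in #4, all above NTC. The peak near Col5a3, a fibrillar collagen chain, went from an NTC mean of 1540 ± 47.3 to 2240 ± 90.1 with #2 and 1930 ± 24.5 with #4 (SD, n = 3; 0.435 ± 0.044). Inside Lama2, a laminin chain, a peak fell by 0.31 ± 0.074. The peak inside Itga9, a chain of a tenascin-binding integrin, fell by 0.56 ± 0.20, and this call was lost without NTC replicate 2, NTC replicate 3 or #4 replicate 1 (limma, adjusted p = 0.128, 0.0631 and 0.0801). It had -0.91 with #2 and -0.21 with #4 (limma, adjusted p = 0.00129 and 0.526).

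Actin regulators had 5 higher and 1 lower of 19 isolated peaks (median 0.014). The peak inside Palld, the actin cross-linker palladin (chromosome 8, 61830829 to 61831330), had 113, 111 and 101 normalized counts in NTC, 153, 185 and 203 in #2, and 188, 180 and 245 in #4, all above NTC, a rise by 0.81 ± 0.12 (limma, adjusted p = 2.35e-07). Inside the formin gene Fmn1 a peak fell by 0.59 ± 0.15. Mesenchymal regulators had 2 higher and 3 lower of 14 (median -0.12): a peak inside Zeb2, a repressor of epithelial genes, rose by 0.21 ± 0.048, and one inside Tcf4, an E-protein gene, fell by 0.69 ± 0.16. Cell cycle genes had 3 higher and 0 lower of 4, among them a peak inside Cdk6, a G1 kinase, that rose by 0.36 ± 0.086. By hairpin the Cdk6 peak rose by 0.59 with #2 and had 0.12 with #4 (limma, adjusted p = 0.369), and the difference of -0.46 ± 0.099 passed (limma, adjusted p = 0.000387). The heat shock list had 2, near Hsf2 and Bag3, and both fell. Interferon and NF-kappaB genes had 2, with 0 called either way.

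Nuclear receptor genes, several of whose products bind MED1, had 3 higher and 2 lower of 27 isolated peaks (median 0.008). The peak inside Nr2c1, an orphan receptor (chromosome 10, 94174628 to 94175129), had 466, 403 and 429 normalized counts in NTC, 614, 676 and 673 in #2, and 518, 578 and 572 in #4, all above NTC, and rose by 0.48 ± 0.070 (limma, adjusted p = 1.95e-07). A weak peak inside Esr1, the oestrogen receptor alpha gene, fell by 0.50 ± 0.20 (limma, adjusted p = 0.0383), and the call was lost without any of NTC replicates 1, 2 and 3, #2 replicate 3 or #4 replicate 1 (adjusted p from 0.052 to 0.194).

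Long neuronal adhesion and synapse genes held 101 isolated peaks in 30 of the 46 genes of the list, with 11 higher and 14 lower (median -0.10). In #4 against #2, 4 of the 101 were higher and 17 lower, where 7.75% and 12.4% of all isolated peaks were. Inside Lsamp, a limbic adhesion protein, a peak 643.0 kb from the next (chromosome 16, 40601633 to 40602134) rose by 0.58 ± 0.080, from an NTC mean of 350 ± 53.7 to 547 ± 55.0 with #2 and 496 ± 23.9 with #4 (SD, n = 3). Inside Dlgap1 one fell by 0.67 ± 0.11, from 250 ± 8.52 to 132 ± 26.3 and 188 ± 15.6. Markers of other tissues also had isolated peaks: 6 for blood, with 2 higher and 1 lower, 8 for endothelium and fat, with 2 and 0, and 8 for nerve and muscle, with 1 and 2. Summed over the 6 blood-marker peaks, levels were 844 to 919 normalized counts in NTC, 1020 to 1040 in #2 and 890 to 935 in #4. Over the 8 of endothelium and fat they were 2610 to 2820, 3100 to 3360 and 2770 to 2900, and over the 8 of nerve and muscle 1250 to 1300, 1160 to 1190 and 1100 to 1240. A peak near Itgam in the blood list rose by 0.54 ± 0.091, and one near Kdr, a VEGF receptor, by 0.32 ± 0.052. Inside the neuronal genes Map2 and Snap25 they moved by 0.385 ± 0.125 and -0.46 ± 0.12, and Map2 did not pass without NTC replicate 3 (limma, adjusted p = 0.12). With #4 alone the peaks of Kdr, Map2 and Snap25 had 0.14, 0.30 and -0.25 and did not pass (limma, adjusted p = 0.0685, 0.109 and 0.192), while with #2 they did. The part of other cell types in the results was not tested.

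Isolated peaks were set beside the strongest gene-end peak of their assigned gene, which 2766 of the 5292 had (52.3%, against 73.5% and 87.9% in the other distal classes). Across these peaks, which are not replicates and share their libraries, the correlation of the fold changes was 0.058 with #2 and 0.076 with #4, and in distal peaks with 4 or more neighbours it was 0.085 and 0.092.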

How the data were processed

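ATAC-seq was measured in 9 libraries, 3 for each of NTC, shMed1 #2 and shMed1 #4. Reads were trimmed, aligned to mm10 (GRCm38), called as peaks and counted with Trim Galore, BWA, MACS2 and featureCounts of Subread, per the submitters' processing notes, with versions not given in the sources used here. Each library has 1 deposited signal value per peak, which the authors name DESeq2-normalized counts. Whether the coordinates count from 0 or 1 is not stated.

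Peaks were placed against 21631 protein-coding RefSeq genes (GRCm38.p6). Of 75936 peaks, 75930 with a mean of at least 10 were tested on log2(value + 1) with limma 3.58.1 (intensity trend, all 9 libraries, two-sided, Benjamini-Hochberg over all peaks tested, R 4.3.3 with the data.table package, version 1.17.8), called at an adjusted p under 0.05. The script was tested on simulated data. Fold changes on this scale understate changes of low peaks. Summaries used Python 3.11.15, pandas 2.3.3, numpy 2.4.6 and matplotlib 3.10.9.

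Replicate numbers are shared between the groups, but same-numbered libraries did not deviate together. The members and gene lists were chosen with earlier results of these data known. Named peaks are those with the largest change each way in each comparison (adjusted p under 0.05, mean of at least 50, no overlap between groups, 1 per gene), the strongest, the most remote, 1 each way from each list, and the Mediator genes; some of these are not reported here. Genes with several peaks, other list members, tRNA neighbours, the split by RefSeq starts, the quintiles cut on NTC and the printed windows were chosen after the values were seen. Alternatives covered scaling, pseudocount, filters, the fit, the distances of the rule and leaving out each library. In bulk samples, fewer cells with an open site and less opening per cell cannot be told apart.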

Additional observations from a re-analysis of the deposited data

Results flagged for a closer look

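At 6 isolated peaks the 2 hairpins moved apart, by the limma test of their difference. They have the largest differences each way among the isolated peaks that passed it with a mean of at least 50 and no overlap between the hairpins, 1 per gene, so their size is a description. Of isolated peaks 410 passed upward (7.75%) and 658 downward (12.4%), beside 8.48% and 13.0% of all peaks. The log2 difference, #4 minus #2, was 1.702 at Sash1, 1.601 at Rbms3 and 1.591 at Stim1, where #4 was higher. It was -1.62 at Nalcn, -1.304 at Ablim3 and -1.204 at Trp63, where #2 was higher.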

How the results depend on the processing

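Percentages of isolated peaks called depended most on the scaling and on the NTC libraries. With equal totals the lower calls were 16.3% with #4 and 26.8% in the mean. Leaving out 1 library at a time, lower calls ran from 12.3% to 19.5% with #2, from 5.56% to 11% with #4 and from 8.94% to 16.6% in the mean, and higher calls in #4 against #2 from 5.16% to 7.62%. Calls over all 75930 peaks moved too. With equal totals 14938 were lower with #4 and 21010 in the mean, against 9152 and 13452 in the main fit. With 1 library left out, lower calls over all peaks ran from 8325 to 14205 in the mean. The share of signal had a log2 ratio of 0.008 between hairpins and NTC, and the median of log2 values gave -0.1. The Zfp958 peak was -0.098 with cyclic loess and -0.17 with quantile scaling, and the Lrif1 peak -0.044 and -0.091. The cause was not tested. Of 1470 values of named peaks under alternatives, 1436 kept their status as called or not, 25 lost the call, 5 gained it and 4 reversed. A change of sign counted as reversed only where the peak was called in the main fit or the alternative. Without the 109 peaks at RefSeq starts, an alternative added after seeing the data, 15.9% rose and 15.7% fell in the mean.

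With the replicate number as a block, 17.8% rose and 18.5% fell with #2, 11.5% and 9.52% with #4, 15.7% and 15.6% in the mean, and 7.26% and 12% in #4 against #2. Same-numbered libraries of different groups correlated at -0.084 to 0.033 in their deviations. With 3 libraries a group, this cannot tell whether they shared a culture or day, which the labels do not say. The planned edgeR, DESeq2 and TMM alternatives were not run because the values are normalized. Cyclic loess was run, but it adjusts by level and not by 1 factor per library, so it does not replace TMM. In quintile 1 of level changes under 0.395 on the log2 scale were not called in the mean, and the part of read depth in this was not tested.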
